A study of Mus musculus with 12 samples.

Results

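The PGC-1 coactivators and the estrogen-related receptors were followed in brown fat, the thermogenic depot, of ob/ob mice, which lack leptin and are obese. The group comprised 7 genes: the coactivators Ppargc1a, Ppargc1b and Pprc1, the nuclear receptors Esrra, Esrrb and Esrrg, and the corepressor Nrip1. They were read through every probe set that the platform's gene table gives to one of them alone, which came to 21 of the 45037 probe sets tested. The rule for membership uses no measured value, but the genes were chosen with earlier results of these data known. All 12 mice were males with the ob/ob genotype, aged 3 months and kept on normal chow. In the anti-FGFR1 group, 6 mice had received 1 intraperitoneal dose of 1 mg/kg of an agonistic antibody against FGFR1, a receptor for fibroblast growth factors. In the control IgG group, 6 mice had received a control IgG and were pair-fed, that is, given food to match the intake of the treated animals. Brown fat was taken on day 4, with 1 array per mouse. Lean mice were not analysed here, and neither group makes functional leptin.

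PGC-1 proteins do not bind DNA themselves but are recruited by transcription factors, to which they attach the machinery that opens chromatin and starts transcription. Estrogen-related receptors are orphan nuclear receptors that bind DNA without a natural hormone and depend on PGC-1 coactivators to switch on genes of respiration, fatty acid oxidation and the citric acid cycle. In brown fat, Ppargc1a is known as the cold- and cAMP-inducible member that drives Ucp1 and mitochondrial biogenesis, and Nrip1, also called RIP140, is known to repress the same genes.

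Values are log2 expression as deposited, and a probe set is said to have risen or fallen where the limma adjusted p, over all 45037 probe sets, was under 0.05. Array medians lay between 7.19 and 7.23, and each array's mean correlation with the others of its group lay between 0.993 and 0.996. The 8 brown adipocyte markers averaged 12.17 to 12.30 on anti-FGFR1 arrays and 12.08 to 12.29 on control IgG arrays. Of these markers 1 rose and 0 fell. No other tissue was analysed here, so these levels alone do not identify the tissue. The 13 skeletal muscle markers averaged 6.99 on anti-FGFR1 replicate 5 and at least 10.5 on the other anti-FGFR1 arrays, against 9.68 on control IgG replicate 6 and 10.51 to 11.84 on the other control IgG arrays. Both muscle-poor arrays were kept, and counts are also given without them. Since tissue was measured in bulk, fewer cells of a type and less RNA per cell cannot be told apart.

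Of the 21 probe sets 3 rose and 0 fell after anti-FGFR1, which is 14.3% called, against 5.32% of all probe sets. Of all probe sets 1.66% were higher and 3.66% lower. All 3 belonged to Ppargc1a, and 2 of these were designed on the same transcript record, so they are not separate lines of evidence. Of the other 18 probe sets none passed. An unadjusted limma p under 0.05 was found for 8 of the 21. The share of all probe sets under that unadjusted threshold is not given here. Such counts, here and further on, are therefore not read as a result. Without both muscle-poor arrays 2 rose, again both of Ppargc1a, while 1434099_at did not pass (0.43, limma adjusted p = 0.0683). With the mean of endothelial markers as a covariate, described further on, 0 passed limma.

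**Figure D1:**
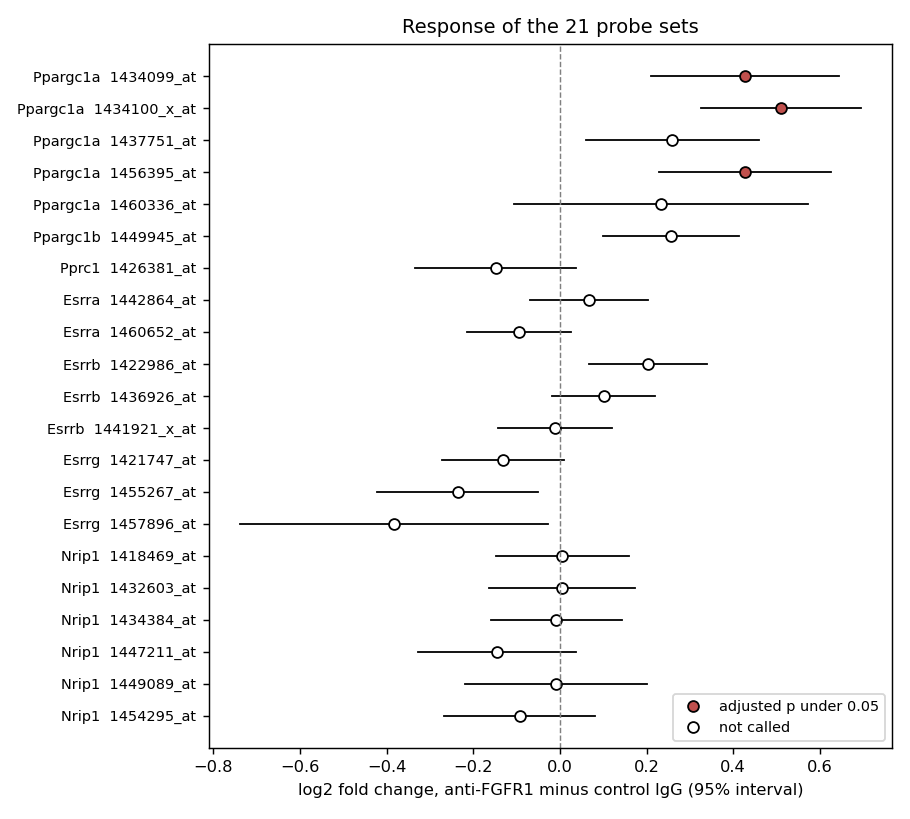
Log2 fold change of the 21 probe sets, anti-FGFR1 minus control IgG, with its 95% interval from limma (6 arrays per group); filled points have an adjusted p under 0.05. The 3 filled points are all Ppargc1a, the 5 points of Ppargc1a and the single one of Ppargc1b lie above 0, and the 3 of Esrrg lie below 0.

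Ppargc1a, the inducible coactivator of brown fat, was higher after anti-FGFR1 on all 5 of its probe sets, by 0.23 to 0.51 on the log2 scale, and passed the test on 3. The stretch of DNA just before its start is shown because this is the member whose transcript rose. It is chr5:51567726-51567975, minus strand, of GRCm38.p6 from RefSeq, the 250 bases before the start, with the single match to a cAMP response half-site (TGACG, on either strand) in capitals.
Ppargc1a: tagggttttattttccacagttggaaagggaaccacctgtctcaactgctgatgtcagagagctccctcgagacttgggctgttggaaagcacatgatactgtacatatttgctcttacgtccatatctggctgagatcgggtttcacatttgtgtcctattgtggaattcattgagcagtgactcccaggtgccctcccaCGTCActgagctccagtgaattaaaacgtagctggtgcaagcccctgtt
The match lies 49 to 45 bases before the start and reads TGACG on the opposite strand. The half-site occurs in 17.8% of 32851 promoters searched over the same length. The full element TGACGTCA, found in 1.55% of promoters, and the ERR element TNAAGGTCA, found in 1.14%, had 0 matches in this window. Over 11 annotated starts of 6 members, Ppargc1b not included, the cAMP half-site had 3 matches at 2 starts, the other 2 matches lying before Esrrb, which was not called. The ERR element had 0 matches over the same starts. The nuclear receptor half-site AGGTCA, which the ERR element contains and 14.0% of promoters hold, had 1 match, before Pprc1. A match is a stretch of letters and not a tested binding site.

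The largest response was that of probe set 1434100_x_at. It read 8.88, 8.86, 8.89, 8.61, 8.84 and 8.70 on the anti-FGFR1 arrays, against 8.03, 8.42, 8.05, 8.52, 8.41 and 8.29 on the control IgG arrays. All 6 anti-FGFR1 arrays lay above all 6 controls, a separation upwards found in 1.08% of all probe sets. The log2 fold change was 0.51 ± 0.09 (SE, limma adjusted p = 0.00281), a 1.42-fold rise, with means of 8.80 ± 0.11 in anti-FGFR1 and 8.29 ± 0.21 in control IgG (SD, n = 6 each). The suffix _x_at marks probe sets some of whose probes can also match other transcripts.

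Its partner 1434099_at, designed on the same record, read 8.96, 8.77, 8.77, 8.44, 8.73 and 8.61 on anti-FGFR1 arrays, against 7.99, 8.43, 8.06, 8.36, 8.58 and 8.30 on control IgG arrays. Here 5 of 6 anti-FGFR1 arrays exceeded every control, and anti-FGFR1 replicate 4 fell among them. The rise was 0.43 ± 0.10 (SE, limma adjusted p = 0.0227). Its call was lost without anti-FGFR1 replicate 1 (0.38, limma adjusted p = 0.0531), anti-FGFR1 replicate 2 (0.41, 0.0516) or control IgG replicate 3 (0.38, 0.0569).

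The third call came from 1456395_at, designed on a different record. Its anti-FGFR1 values were 9.13, 9.04, 8.72, 8.93, 9.02 and 9.25, against 8.33, 8.81, 8.48, 8.48, 8.75 and 8.67 in control IgG. Again 5 of 6 anti-FGFR1 arrays were above all controls, the exception being replicate 3. The rise was 0.43 ± 0.09 (SE, limma adjusted p = 0.0140), or 1.34-fold. This call and that of 1434100_x_at held without any single array.

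The remaining probe sets of Ppargc1a, the brightest of the gene, had smaller differences and did not pass. Probe set 1437751_at read 10.12, 10.06, 9.75, 9.94, 9.97 and 9.83 in anti-FGFR1, against 9.59, 9.63, 9.47, 9.56, 10.09 and 9.77 in control IgG. Control IgG replicate 5 reached nearly the top of the treated range. The difference was 0.26 ± 0.09 (95% interval 0.06 to 0.46, limma adjusted p = 0.134), and it passed without control IgG replicate 5 (0.34, limma adjusted p = 0.0161).

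Probe set 1460336_at read 9.87, 9.97, 9.45, 9.79, 9.99 and 9.95 in anti-FGFR1, against 9.09, 9.42, 9.28, 9.92, 10.22 and 9.69 in control IgG. The controls spanned the whole treated range, and the difference of 0.23 ± 0.16 had a 95% interval of -0.11 to 0.57 (limma adjusted p = 0.466). Control IgG replicate 5 was the highest control on 1434099_at, 1437751_at and 1460336_at. Averaging the 5 probe sets gave 0.37 ± 0.09 (SE, limma adjusted p = 0.0204 over 18193 genes).

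Whether the probe sets of Ppargc1a disagree was asked with the difference between each one and the brightest, 1437751_at, on the same array. Relative to it the response of 1434100_x_at was larger by 0.25 (95% interval 0.03 to 0.48, limma adjusted p = 0.242 over 16752 such pairs). For 1434099_at and 1456395_at it was larger by 0.17 each, and for 1460336_at it differed by -0.03. None of these differences passed, nor did any of the 14 such pairs among the members, of which 3 had an unadjusted p under 0.05, while 1.99% of all pairs did pass. The called and uncalled probe sets of Ppargc1a were therefore not shown to respond differently, and transcript isoforms could not be told apart with them.

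**Figure D2:**
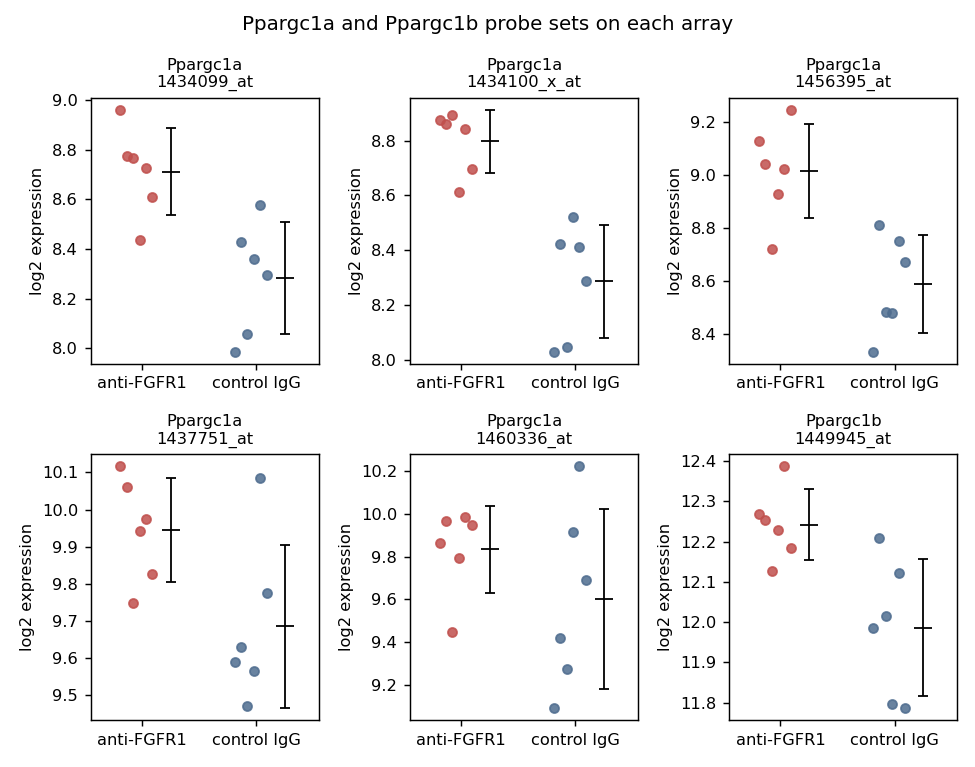
Log2 expression of the 5 probe sets of Ppargc1a and the single one of Ppargc1b on each array, with anti-FGFR1 left and control IgG right; points are mice and bars the mean ± SD (n = 6 each), and vertical axes differ between panels and do not start at 0. The groups are apart on 1434100_x_at, where anti-FGFR1 arrays lie at 8.61 or above and controls at 8.52 or below, and overlap on the other panels.

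Ppargc1b, the second family member, a coactivator of the same receptors that is less responsive to cold than Ppargc1a, had 1 probe set, 1449945_at. It read 12.27, 12.25, 12.13, 12.23, 12.39 and 12.18 in anti-FGFR1, against 11.99, 12.21, 12.02, 11.80, 12.12 and 11.79 in control IgG. Of the anti-FGFR1 arrays 4 of 6 lay above all controls. The difference of 0.26 ± 0.07 (95% interval 0.10 to 0.41) missed the threshold (limma adjusted p = 0.0576). With 1 probe set for each of 18193 genes in the fit, the same difference had a limma adjusted p of 0.0448. That fit was among the 10 of 25 alternatives in which it passed. Some of the 10 left the difference at 0.26 and changed only the probe sets fitted, the variance estimate or the blocking. With 1 probe set, the brightest and the mean of the gene are the same values, so the 10 are not separate lines of evidence. The 10 also included the fits without control IgG replicate 2 (0.30, limma adjusted p = 0.0267) and without control IgG replicate 5 (0.28, 0.0454). Without both muscle-poor arrays the difference was 0.19 (limma adjusted p = 0.206).

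Pprc1, the PGC-1-related coactivator that responds to serum in growing cells, did not pass and lay in the opposite direction. It read 8.004, 8.01, 7.91, 8.13, 8.03 and 8.04 in anti-FGFR1, within the range of 7.81 to 8.42 seen in control IgG. Its difference was -0.15 ± 0.09 (95% interval -0.33 to 0.04, limma adjusted p = 0.380), and 0.03 with the endothelial marker mean as a covariate. The treated arrays were closer together (SD 0.07) than the controls (SD 0.23).

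**Figure D3:**
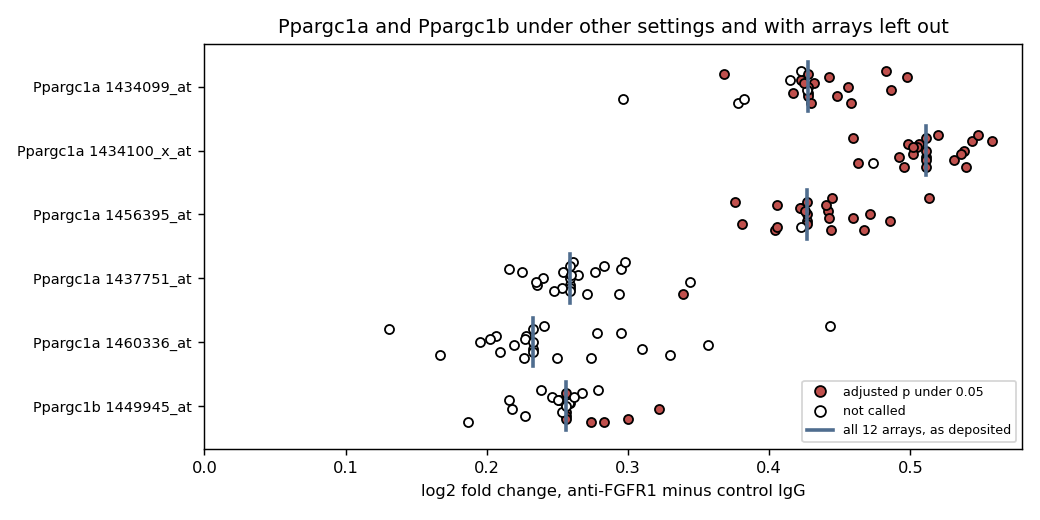
Log2 fold change, anti-FGFR1 minus control IgG, of Ppargc1a and Ppargc1b probe sets under other processing settings and with arrays left out (points; filled where the adjusted p is under 0.05), with the value from all 12 arrays as deposited as a bar; the mean over the probe sets of a gene is not drawn. Every point lies above 0, and the values of 1434100_x_at run between 0.46 and 0.56.

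The values of the Ppargc1a calls were read beside the tissue and RNA measures that could move with them. With the muscle marker mean as a covariate, 1434099_at, 1434100_x_at and 1456395_at were at 0.43, 0.505 and 0.44, and all 3 still passed (limma adjusted p = 0.0325, 0.00535 and 0.0170). The difference between the 3′ and 5′ control probe sets of Actb and Gapdh, a measure of RNA integrity, was 0.161 to 0.232 in anti-FGFR1 and 0.139 to 0.221 in control IgG (exact permutation p = 0.0368, two-sided). With it as a covariate, 1434100_x_at and 1456395_at passed at 0.52 and 0.51, and 1434099_at did not pass (0.42, limma adjusted p = 0.138).

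Endothelial markers were lower in the treated tissue: 7 of 8 fell and none rose, and their mean was 9.31 to 9.55 in anti-FGFR1 and 9.68 to 9.93 in control IgG, without overlap. Of the 7 smooth muscle and pericyte markers 5 fell, and their mean was 9.48 to 9.65 in anti-FGFR1 and 9.80 to 10.11 in control IgG. With the endothelial mean as a covariate the 3 probe sets were at 0.30, 0.47 and 0.42 with larger errors (SE 0.23, 0.20 and 0.21), and none passed (limma adjusted p = 0.712, 0.423 and 0.531). Because this mean separates the groups fully, its part and that of the antibody cannot be told apart in that fit. Macrophage markers averaged 10.34 to 10.80 in anti-FGFR1 and 10.06 to 10.79 in control IgG, and 3 of 9 rose. With their mean as a covariate all 3 Ppargc1a calls held, and Ppargc1b passed at 0.32 (limma adjusted p = 0.0353). Ppargc1b did not pass with the muscle mean (0.26, limma adjusted p = 0.0778), the 3′ to 5′ difference (0.24, 0.267) or the endothelial mean (0.25, 0.662).

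Of the 8 probe sets of the estrogen-related receptors 0 were called by limma, and 3 had an unadjusted p under 0.05. Esrra, the receptor through which PGC-1 acts on respiratory genes, had probe sets that differed in sign. The brighter, 1460652_at, read 10.56, 10.42, 10.48, 10.47, 10.60 and 10.59 in anti-FGFR1, against 10.54, 10.56, 10.61, 10.81, 10.56 and 10.60 in control IgG. Its difference was -0.09 ± 0.06 (95% interval -0.21 to 0.03, limma adjusted p = 0.389). Whether its response differed from that of Ppargc1a was not tested. Probe set 1442864_at read 8.65 to 8.94 in anti-FGFR1 and 8.59 to 8.83 in control IgG, a difference of 0.07 ± 0.06 (limma adjusted p = 0.622).

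Esrrg, the receptor of highly oxidative tissues such as heart and oxidative muscle, was lower on each of its 3 probe sets, and none passed. Probe set 1455267_at read 9.16, 9.14, 9.14, 9.24, 9.28 and 9.31 in anti-FGFR1, against 9.23, 9.49, 9.15, 9.75, 9.46 and 9.61 in control IgG. Anti-FGFR1 arrays were tightly grouped at the low end of the control range, and the difference was -0.24 ± 0.09 (95% interval -0.42 to -0.05, limma adjusted p = 0.143). Probe set 1457896_at read 8.62, 8.12, 8.26, 8.30, 8.54 and 8.13 in anti-FGFR1, against 9.05, 9.42, 8.54, 8.18, 8.48 and 8.59 in control IgG.

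Control IgG replicates 1 and 2 stood highest on that probe set, and its difference was -0.38 ± 0.17 (limma adjusted p = 0.218). Probe set 1421747_at, whose mean was below the median of all probe sets, was at -0.13 ± 0.07 (limma adjusted p = 0.294). Averaged over the 3 probe sets, Esrrg was at -0.25 ± 0.065 (SE) and passed (limma adjusted p = 0.0289 over 18193 genes), the one summary under which a member other than the coactivators was called. With the muscle marker mean as a covariate 1455267_at was at -0.255, 1457896_at at -0.40 and 1421747_at at -0.125. With the 3′ to 5′ difference they were at -0.138, -0.607 and -0.053, and with the endothelial mean at -0.159, -0.526 and -0.074. None of these was called, and the gene average was not fitted with these covariates.

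Esrrb, best known from embryonic stem cells and the placenta, was dim: 2 of its 3 probe sets had means under 7.20, the median of all probe sets. On 1422986_at the anti-FGFR1 arrays read 6.67, 6.79, 6.67, 6.52, 6.53 and 6.91, against 6.46, 6.49, 6.48, 6.53, 6.44 and 6.50 in control IgG. The difference was 0.20 ± 0.06 (limma adjusted p = 0.0809), with both group means under the median of all probe sets. The other probe sets were at 0.10 ± 0.06 and -0.01 ± 0.06.

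Nrip1, which opposes PGC-1 on many shared target genes by bringing in histone deacetylases and CtBP proteins, did not pass on any of its 6 probe sets. The brightest, 1418469_at, read 9.87, 9.89, 9.84, 9.81, 9.89 and 9.77 in anti-FGFR1, against 10.11, 9.76, 9.63, 9.92, 9.69 and 9.93 in control IgG. The treated values sat in the middle of the control range, and the difference was 0.01 ± 0.07 (95% interval -0.15 to 0.16, limma adjusted p = 0.979). The other 5 probe sets differed by -0.15 to 0.00, with the lowest limma adjusted p at 0.380. All but 1447211_at changed sign under at least 1 alternative, without any call.

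**Figure D4:**
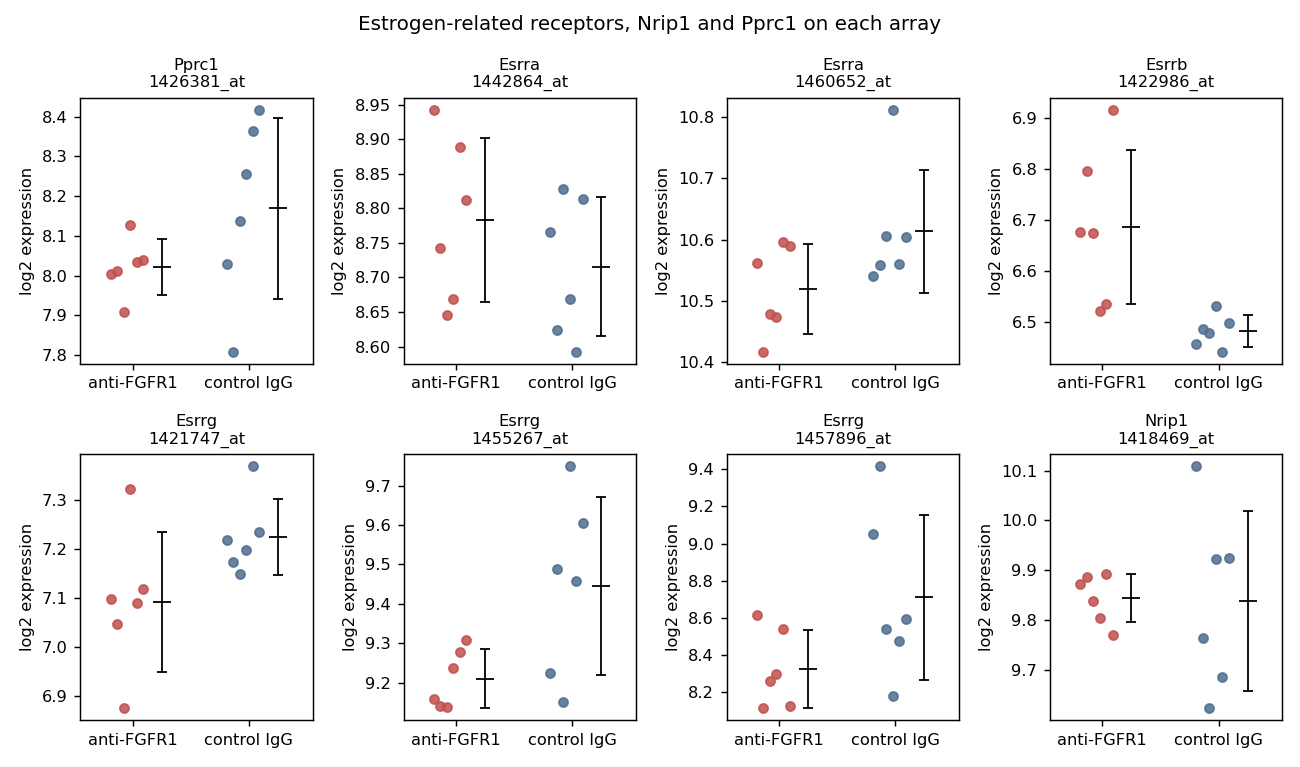
Log2 expression on each array of 8 probe sets of Esrra, Esrrb, Esrrg, Nrip1 and Pprc1, with anti-FGFR1 left and control IgG right; points are mice, bars the mean ± SD (n = 6 each), and vertical axes differ and do not start at 0. Esrrb is drawn by its probe set with the smallest p, 1422986_at, at 0.20, while its brightest, 1441921_x_at, was at -0.01. Nrip1 is drawn by its brightest. The groups overlap in every panel, and the anti-FGFR1 arrays of Esrrg 1455267_at lie between 9.14 and 9.31.

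The genes around these members were described from 6 lists of 97 genes, of which 91 were analysed here, and 1 probe set, the brightest, stood for each gene. Of the 91, 3 rose and 2 fell, or 5 called in all. Among the brightest probe sets of all 18193 genes 6.56% were called, 2.32% higher and 4.24% lower, with all probe sets in the adjustment. With 1 probe set for each gene in the fit, 9 of the 91 were called, against 1461 of all genes, and with the mean of each gene's probe sets 8 were called, against 1486 of all genes. The median log2 fold change of the 91 was -0.02, against 0.01 over all genes. Without both muscle-poor arrays 0 of the 91 passed limma, and with the macrophage or the endothelial marker mean as a covariate none of the 5 passed. With the replicate block only Fabp3 of the 5 was called.

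Among 16 enzymes and binding proteins that modify or repress PGC-1, 0 were called by limma, 6 had an unadjusted p under 0.05, and the median was -0.06. Prkaa1, a catalytic subunit of the energy-sensing kinase AMPK, differed by 0.25 ± 0.08 (limma adjusted p = 0.0948). Tle3, a corepressor that antagonises the brown fat programme, differed by -0.16 ± 0.06 on its brightest probe set (limma adjusted p = 0.119), while 2 of its 3 dimmer probe sets fell, with log2 fold changes of -0.26 and -0.32 (limma adjusted p = 0.0477 and 0.0174). Sirt1, the deacetylase that activates PGC-1, differed by -0.15 and Kat2a, which acetylates it, by -0.11, neither called. Sirt1 and Kat2a were named after their values were seen, as were Tfam, Uqcrc2, Cox7a1, Perm1, Ckmt2 and Cox6a2 in the following account.

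Of 14 nuclear receptor coregulators measured, 0 were called by limma and 4 had an unadjusted p under 0.05. Med1, the Mediator subunit that nuclear receptors and PGC-1 contact, differed by 0.19 ± 0.06 (limma adjusted p = 0.0692) on its brightest probe set and by -0.13 to 0.18 on the other 6. Lrpprc, an RNA-binding protein of mitochondrial transcripts that also binds PGC-1, differed by 0.13 ± 0.04 (limma adjusted p = 0.0964). All 6 anti-FGFR1 arrays lay above all controls, as in 1.08% of all probe sets. Of 9 upstream inputs to Ppargc1a, the cAMP and calcium effectors that act on its promoter, 0 were called by limma and 3 had an unadjusted p under 0.05. Ppp3ca, a catalytic subunit of calcineurin, differed by -0.17 ± 0.05 (limma adjusted p = 0.0673), and Atf2, a factor that binds the Ppargc1a promoter downstream of p38 kinase, by -0.17 ± 0.06 (limma adjusted p = 0.0890). On the brightest probe set of Ppp3ca all 6 anti-FGFR1 arrays lay below all controls, as in 2.82% of all probe sets.

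Of 17 transcription factors that recruit PGC-1, 1 rose and 1 fell. Nr1h3, the oxysterol receptor LXR alpha, rose by 0.21 ± 0.06, at 9.38 to 9.61 in anti-FGFR1 and 9.21 to 9.48 in control IgG (limma adjusted p = 0.0481). Mef2d, a factor of muscle and neurons, fell, with a log2 fold change of -0.17 ± 0.05 (limma adjusted p = 0.0423). It read 10.34 to 10.49 in anti-FGFR1 and 10.52 to 10.64 in control IgG, a separation downwards found in 2.82% of all probe sets, and its other probe sets were at -0.08 and -0.04. Among the 12 fits that left out 1 array, Nr1h3 was called in 2, without anti-FGFR1 replicate 2 or control IgG replicate 4, and had a limma adjusted p of 0.0543 to 0.106 in the other 10. Mef2d was called in 3, without anti-FGFR1 replicate 3 or control IgG replicate 4 or 5, and was at 0.0589 to 0.0994 in the other 9. Both were lost with the muscle mean as a covariate, at 0.19 and -0.17, and Mef2d also after its probe sets were averaged (-0.0965, limma adjusted p = 0.156).

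Of 24 mitochondrial targets of the receptors and coactivators, 1 rose and none fell. Tfb1m, which methylates mitochondrial ribosomal RNA, rose by 0.23 ± 0.07, at 8.33 to 8.64 in anti-FGFR1 and 8.04 to 8.36 in control IgG (limma adjusted p = 0.0496). The call held without anti-FGFR1 replicate 2 and was lost without any one of the other 11 arrays (limma adjusted p 0.0543 to 0.107). It was also lost with the muscle mean as a covariate (0.24, limma adjusted p = 0.0687) and after centring each array on its median (0.23, 0.0674). With the 3′ to 5′ difference it held (0.32, limma adjusted p = 0.0460). The other probe set of Tfb1m was at 0.20 and not called (limma adjusted p = 0.0782). The median of the list was 0.02, and 15 of 24 lay above 0, against 53.4% of the brightest probe sets of all 18193 genes. Acadm, medium-chain acyl-CoA dehydrogenase and a standard target of the receptors, differed by -0.03 ± 0.04 (limma adjusted p = 0.755), and Pdk4, which inhibits pyruvate dehydrogenase, by -0.03 ± 0.05 (limma adjusted p = 0.794). Both were above 13 in log2 units on every array. Tfam, which packages mitochondrial DNA, differed by 0.12 ± 0.05 and Uqcrc2, a core protein of respiratory complex III, by 0.18 ± 0.05, without passing. Perm1, a muscle regulator induced by PGC-1, differed by -0.21 ± 0.07 (limma adjusted p = 0.123).

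The widest differences in this list were those of Ckmt2, the mitochondrial creatine kinase of striated muscle (-0.64 ± 0.65), and Cox6a2, a muscle and brown fat subunit of cytochrome oxidase (-0.25 ± 0.44). Both ranged widely, Ckmt2 from 4.99 to 9.29 in anti-FGFR1 and 6.33 to 9.71 in control IgG, and neither passed. The skeletal muscle markers had the same kind of spread (6.99 to 11.66 in anti-FGFR1, 9.68 to 11.84 in control IgG), and their part in these values was not tested.

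Of 11 measured brown fat genes under PGC-1 or Nrip1 control, 1 rose and 1 fell. Elovl3, the cold-induced elongase of very long chain fatty acids, rose by 0.76 ± 0.19, to 11.55 to 12.12 in anti-FGFR1, against 10.10 to 11.52 in control IgG (limma adjusted p = 0.0274). All 6 anti-FGFR1 arrays were above all controls, as in 1.08% of all probe sets, and control IgG replicate 1 was far below the others. Without that array the rise was 0.57 and still passed (limma adjusted p = 0.0108), while the call was lost without anti-FGFR1 replicate 1 (0.71, 0.0643), replicate 4 (0.72, 0.0605) or replicate 5 (0.75, 0.0559) or control IgG replicate 4 (0.76, 0.0520). Fabp3, a fatty acid binding protein of oxidative tissue, fell, with a log2 fold change of -0.21 ± 0.05 (limma adjusted p = 0.0337). Its call held without anti-FGFR1 replicate 4 or control IgG replicate 1 or 2, and was lost without any one of the other 9 arrays (limma adjusted p 0.0534 to 0.0785). Both calls held with the muscle mean as a covariate, at 0.78 and -0.22. With the 3′ to 5′ difference Elovl3 was at 1.20 (limma adjusted p = 0.00333) and Fabp3 lost its call at -0.13 (0.370). Averaging the probe sets of Fabp3 ended its call too, at -0.13 (limma adjusted p = 0.190), its other probe set being at -0.05. Elovl3 lost its call with the replicate block (limma adjusted p = 0.0553) and with the macrophage mean (0.70, 0.0787).

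Other genes named as targets of Ppargc1a did not pass. Ucp1, the uncoupling protein, averaged 14.55 ± 0.05 in anti-FGFR1 and 14.52 ± 0.04 in control IgG (SD, n = 6 each), a difference of 0.03 ± 0.04 (limma adjusted p = 0.798) near the top of the array's scale. Cidea, a lipid droplet protein repressed by Nrip1, differed by -0.03 ± 0.04 near the top as well (limma adjusted p = 0.708). Dio2, which activates thyroid hormone, was at 0.12 ± 0.13 on its brightest probe set and at -0.14 and -0.25 on the others. Vegfa, the angiogenic factor that PGC-1 and the receptors induce in muscle, was at 0.00 ± 0.06 and at -0.28 on its other probe set (limma adjusted p = 0.990 and 0.117). Cox7a1, a cytochrome oxidase subunit that marks brown fat, differed by 0.16 ± 0.05 (limma adjusted p = 0.0702). On Cox7a1 all 6 anti-FGFR1 arrays lay above all controls, as in 1.08% of all probe sets.

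**Figure D5:**
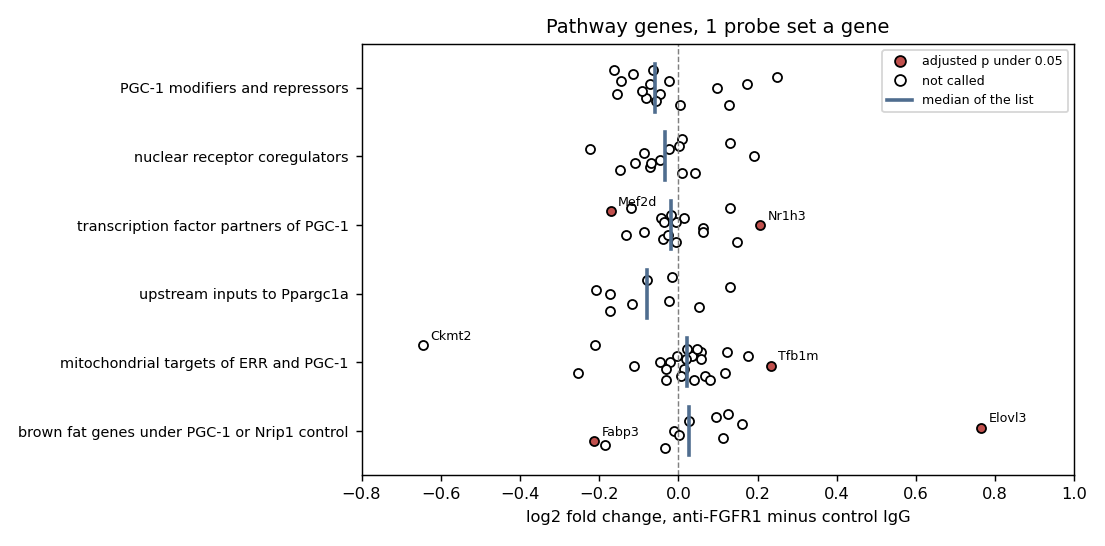
Log2 fold change, anti-FGFR1 minus control IgG, of the 91 pathway genes in 6 lists, 1 probe set a gene; filled points have an adjusted p under 0.05, bars are list medians, and called genes and Ckmt2 are named. The list medians lie between -0.08 and 0.03, and the 5 filled points are Mef2d, Nr1h3, Tfb1m, Fabp3 and Elovl3.

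The genes whose deviations from their group means most resembled those of each member were taken as the highest Pearson correlations over the 12 arrays among 18193 genes, as a description. Deviations of Ppargc1b were most like those of Hscb, a mitochondrial cochaperone of iron-sulfur cluster assembly (r = 0.931, Spearman 0.902), and Tmem61. Those of Pprc1 were most like Ndel1, a dynein regulator (r = 0.967, Spearman 0.965), and Adamts1, a matrix protease. For Esrra they were Gm9222 (r = 0.901) and Mrpl45, a mitochondrial ribosomal protein (r = 0.888), and for Ppargc1a Scgn (r = 0.905) and 2610316D01Rik (r = 0.899). Nrip1 was paired with Tmem116 and Nxnl2, Esrrb with Cend1 and Pax4, and Esrrg with Cypt4 and Clic3. None of these genes was called, with limma adjusted p values of 0.102 or more, and all points share the same 12 arrays. How high the highest of 18193 correlations would lie for unrelated genes was not tested.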

How the data were processed

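RNA of brown adipose tissue was hybridised to one-colour Affymetrix arrays, 6 anti-FGFR1 and 6 control IgG. The deposited values are log2 expression per probe set; RMA and limma were used, per the submitters' processing notes, without versions. RMA corrects background, normalizes arrays together and summarises probes, which tends to shrink differences of dim probe sets. No detection call, build or batch is given in the sources used here. Values were used as deposited. Arrays give no counts, so the number of arrays limits precision.

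After removal of 64 array controls, 45037 probe sets were tested with limma 3.58.1 in R 4.3.3 (package data.table, version 1.17.8): lmFit and eBayes, two-sided, no covariates, Benjamini-Hochberg adjustment, threshold 0.05. Log2 differences subtract control IgG from anti-FGFR1 and carry moderated SE. The platform's gene annotation gives 1 gene to 34945 probe sets, several to 932 and none to 9160; symbols were updated by Entrez identifier. Lists used the brightest probe set of each gene. Differences between probe sets of a gene were fitted on all such pairs. Marker means and the RNA measure were compared by a two-sided exact permutation test over 924 assignments. The gene test was checked on simulated data. Members, lists and tests were chosen with earlier results of these data known. Named genes were all member probe sets, in each list the called genes (up to 5) or else the 2 with the smallest p, 7 fixed targets, and for each member the 2 genes with the most similar deviations; others are said to be outside this rule. Promoters came from RefSeq on GRCm38.p6. Some listed genes are not reported here.
Alternatives were another quantile normalization, median centring, the replicate block, 3′ to 5′ difference, muscle, endothelial or macrophage covariates, a filter on dim probe sets, single-gene probe sets only, 1 value a gene, an intensity trend in eBayes, and leaving out arrays.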

Additional observations from a re-analysis of the deposited data

Results flagged for a closer look

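In 76 groups of 6 arrays, 2 for each named probe set, 5 held an array far from the other 5 by Dixon's test, and chance flags about 1 group in 20. Among anti-FGFR1 arrays, replicate 3 read 9.45 on Ppargc1a 1460336_at, with the others at 9.79 to 9.99; without it the difference was 0.31, against 0.23 with it. Among control IgG arrays, replicate 4 read 10.81 on Esrra 1460652_at, with the others at 10.54 to 10.61, and without it the difference was -0.055 (-0.094 with it). Control IgG replicate 1 read 8.004 on Nrip1 1432603_at, against 7.53 to 7.69 for the others. Control IgG replicate 5 read 9.21 on Nrip1 1454295_at, against 9.53 to 9.67 for the others. Control IgG replicate 1 read 10.10 on Elovl3 1420722_at, against 10.99 to 11.52 for the others, and without it the rise was 0.57, against 0.76 with it. Of these 5 probe sets only that of Elovl3 was called.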

How the results depend on the processing

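Every Ppargc1a and Ppargc1b probe set stayed above 0 under all alternatives, while calls depended on the adjustment and on covariates. The count of called probe sets, 2398 with all arrays as deposited, was 910 with the 3′ to 5′ difference as a covariate, 72 with the endothelial mean, 1564 without both muscle-poor arrays, 1461 genes with the brightest probe set of each gene, 1486 genes with the mean of its probe sets, and 1655 to 2894 without 1 array. With another quantile normalization 980 were higher and 1454 lower, against 748 and 1650. Called member probe sets numbered 3; these were 0 with the endothelial mean, 1 with the brightest probe set of each gene (Ppargc1b), 2 to 5 without 1 array, and 4 with the replicate block. Replicate numbers come from the sample titles, which do not say whether same-numbered arrays belong together. Deviations of same-numbered arrays correlated at -0.167 to 0.245, which does not settle the question. The 5 called pathway genes were 3 after median centring, 1 with the replicate block, 2 with the 3′ to 5′ difference, 2 with the muscle mean, 1 with the macrophage mean, 0 with the endothelial mean, 11 without dim probe sets, 11 with an intensity trend, 9 and 8 with the brightest probe set and the mean of each gene, 0 without both muscle-poor arrays and 0 to 4 without 1 array. Pairs of probe sets that differed in response numbered 334, 160 without both muscle-poor arrays and 177 to 416 without 1 array. The endothelial and macrophage means and the removal of both muscle-poor arrays were chosen after seeing the data.

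Signs turned only for uncalled differences, with no call gained. With the endothelial mean, Pprc1 was at 0.031, Nrip1 at -0.075 (1418469_at), -0.29 (1432603_at), 0.051 (1434384_at), 0.12 (1449089_at) and 0.0165 (1454295_at), Acadm at 0.021, Pdk4 at 0.026 and Vegfa at -0.041. With the 3′ to 5′ difference, Nrip1 was at -0.13 (1418469_at) and -0.11 (1432603_at), and Pdk4 at 0.033. With the muscle mean, Nrip1 1418469_at was at -0.015 and Esrrb 1441921_x_at at 0.0014, and with the macrophage mean Esrrb 1441921_x_at was at 0.069 and Nrip1 1449089_at at 0.0057. With the mean of each gene's probe sets, Nrip1 was at -0.041, Esrrb at 0.098, Dio2 at -0.089 and Vegfa at -0.14. After another quantile normalization Nrip1 was at 0.031 (1434384_at) and 0.027 (1449089_at), and Vegfa was at -0.0021 after median centring. Without both muscle-poor arrays, Nrip1 was at 0.030 (1434384_at) and 0.013 (1449089_at), and Vegfa at -0.019. Without 1 array, Nrip1 1418469_at ran from -0.037 to 0.060, 1432603_at from -0.036 to 0.073, 1434384_at from -0.042 to 0.032, 1449089_at from -0.056 to 0.069, Esrrb 1441921_x_at from -0.061 to 0.019 and Vegfa from -0.027 to 0.039. The cause of these changes was not tested.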
